A study of Mus musculus with 12 samples.

Results

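Liver endothelial cells line the sinusoids, the central and portal veins, the hepatic arteries and the lymphatic vessels of the liver. The set described here holds 36 named genes known from these cells. The array value table names 19938 genes in all, and 35 of the 36 have a transcript cluster that names no other gene. Selp, which encodes P-selectin, has none and was not analysed here. All 35 passed the filter on low values. They comprise 9 genes of sinusoidal scavenging and endocytosis, 5 growth factor receptors, 8 junction and surface genes, 5 transcription factors, 5 genes of secreted signals and nitric oxide, and 3 inducible adhesion molecules.

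Sinusoidal endothelial cells are perforated by open pores, lack a continuous basement membrane, and clear waste macromolecules from blood through scavenger receptors. They depend on vascular endothelial growth factor (VEGF) and angiopoietin signals. In turn they release Wnt ligands, R-spondin and BMP2, which set hepatocyte zonation and iron handling. In inflamed liver, endothelial cells display adhesion molecules that capture leukocytes.

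RNA was taken from whole liver at 2 weeks of age and measured on 12 Affymetrix arrays, 3 for each of 4 genotypes. Stat3Fl/Fl liver carries floxed Stat3 alleles, and Stat3Δhc is the label of the matching liver with the Stat3 deletion. Stat3Fl/FlMdr2-/- and Stat3Δhc Mdr2-/- are the same alleles on loss of Mdr2, also called Abcb4, the canalicular phospholipid transporter whose absence produces a sclerosing cholangitis in mice. All mice therefore carried altered Stat3 alleles, and no wild-type group is among the arrays. The labels state neither the Cre driver nor whether each array is a separate animal, so the p-values measure the spread between these arrays, which may be technical. The 3 arrays of a genotype are called A, B and C, and 3 values in a row are given in that order.

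The genotypes were checked first. Stat3 signal ranged from 9.19 to 9.54 in the 6 floxed arrays and from 7.69 to 8.12 in the 6 Stat3Δhc arrays, and Abcb4 signal reached 10.28 without Mdr2 loss and ran from 8.87 to 9.36 with it, with no overlap. One label field swaps the genotypes of the 6 Mdr2-/- arrays against 3 other fields. Groups follow the 3 other fields, with which Stat3 signal fits in all 6 of these arrays. Xist signal marked 4 arrays, namely all 3 of Stat3Fl/FlMdr2-/- and array A of Stat3Δhc Mdr2-/-, and Y-linked genes marked the 8 others. Skeletal muscle genes were high in every array without the knockout, with a mean over 10 genes from 8.80 to 9.57, against 5.44 to 5.86 in the knockout arrays.

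The endothelial genes were lowest in Stat3Δhc Mdr2-/- liver. In 27 of the 35 genes this genotype had the lowest of the 4 means, against 32.3% of all 13977 genes tested. In 11 genes (Lyve1, Oit3, Flt1, Flt4, Tek, Tie1, Cdh5, Emcn, Esam, Egfl7 and Rspo3) all 3 of its arrays lay below the 9 others, against 4.62% of all genes. The mean log2 signal over the 35 genes was 7.74 to 7.86 in the Stat3Δhc Mdr2-/- arrays, 7.98 to 8.05 in Stat3Fl/FlMdr2-/-, 7.98 to 8.02 in Stat3Δhc and 7.96 to 8.10 in Stat3Fl/Fl. In whole-liver RNA, fewer endothelial cells and less of these RNAs per cell cannot be told apart.

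Mdr2 loss in Stat3-deleted liver, the comparison of Stat3Δhc Mdr2-/- with Stat3Δhc, changed 16 of the 35 genes at an adjusted p under 0.05 in limma. Of these, 13 fell and 3 rose, whereas 17.4% of all genes changed, 10.5% lower and 6.9% higher. All 5 growth factor receptors fell, as did 4 of 9 sinusoidal genes, 2 of 8 junction and surface genes and 2 of 5 genes of secreted signals. None of the 5 transcription factors passed the test, and all 3 adhesion molecules rose. Values did not overlap between the genotypes in 20 lower and 3 higher genes, against 22.3% and 14.9% of all genes. The median change was -0.19 on the log2 scale, against -0.02 over all genes.

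Stat3 deletion on the Mdr2 knockout, the comparison of the 2 Mdr2-/- genotypes, lowered 3 genes (Flt4, Oit3 and Gpr182) and raised none. Over all genes 5.77% changed, 3.9% lower and 1.87% higher. The log2 change was negative in 31 of 35 genes, against 54.4% of all genes, with a median of -0.21 against -0.03. Values did not overlap between the genotypes in 15 genes, all lower in Stat3Δhc Mdr2-/-, against 17.7% of all genes. An unadjusted p under 0.05 was found in 18, all lower, against 17.5%. Only Stat3Δhc Mdr2-/- holds both the Xist and the Y-linked pattern, in array A against B and C. With the pattern as a covariate this comparison therefore rests on array A alone against the 3 Stat3Fl/FlMdr2-/- arrays. The log2 changes were then -0.42 for Flt4, -0.37 for Oit3 and -0.25 for Gpr182, against -0.42, -0.37 and -0.39 without it. A fit with 1 array on a side cannot show the part of the pattern, which was not tested further.

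Stat3 deletion without the knockout changed none of the 35 genes in limma, against 2.58% of all genes, 1.51% higher and 1.07% lower. At an unadjusted p under 0.05 there were 4, against 16.4% of all genes, with 1 higher (Rspo3) and 3 lower (Vcam1, Cdh5 and Gata4). Other settings called 0 to 6. The 6 came with array weights, a setting that also raised the count over all genes, as given in the last section. Mdr2 loss in floxed liver raised Stab2 and changed no other gene of the set, against 12.8% of all genes, 7.12% higher and 5.65% lower. This comparison sets 3 arrays with Xist signal against 3 with Y-linked signal, so that pattern and genotype cannot be told apart in it. With the pattern as a covariate its values are offset by array A of Stat3Δhc Mdr2-/- against B and C, and decide nothing on that.

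The difference of the Stat3 effects, which is also the difference of the Mdr2 effects, passed the test in none of the 35 genes in limma, against 0.0715% of all genes, 0.0143% higher and 0.0572% lower. It had an unadjusted p under 0.05 in 13 genes, all negative, against 10.2% of all genes, and 1 gene passed with array weights. The 4 pairwise comparisons share arrays with each other. The 16 calls after Mdr2 loss in Stat3-deleted liver and the single call in floxed liver are therefore not shown to differ for any single gene.

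**Figure D1:**
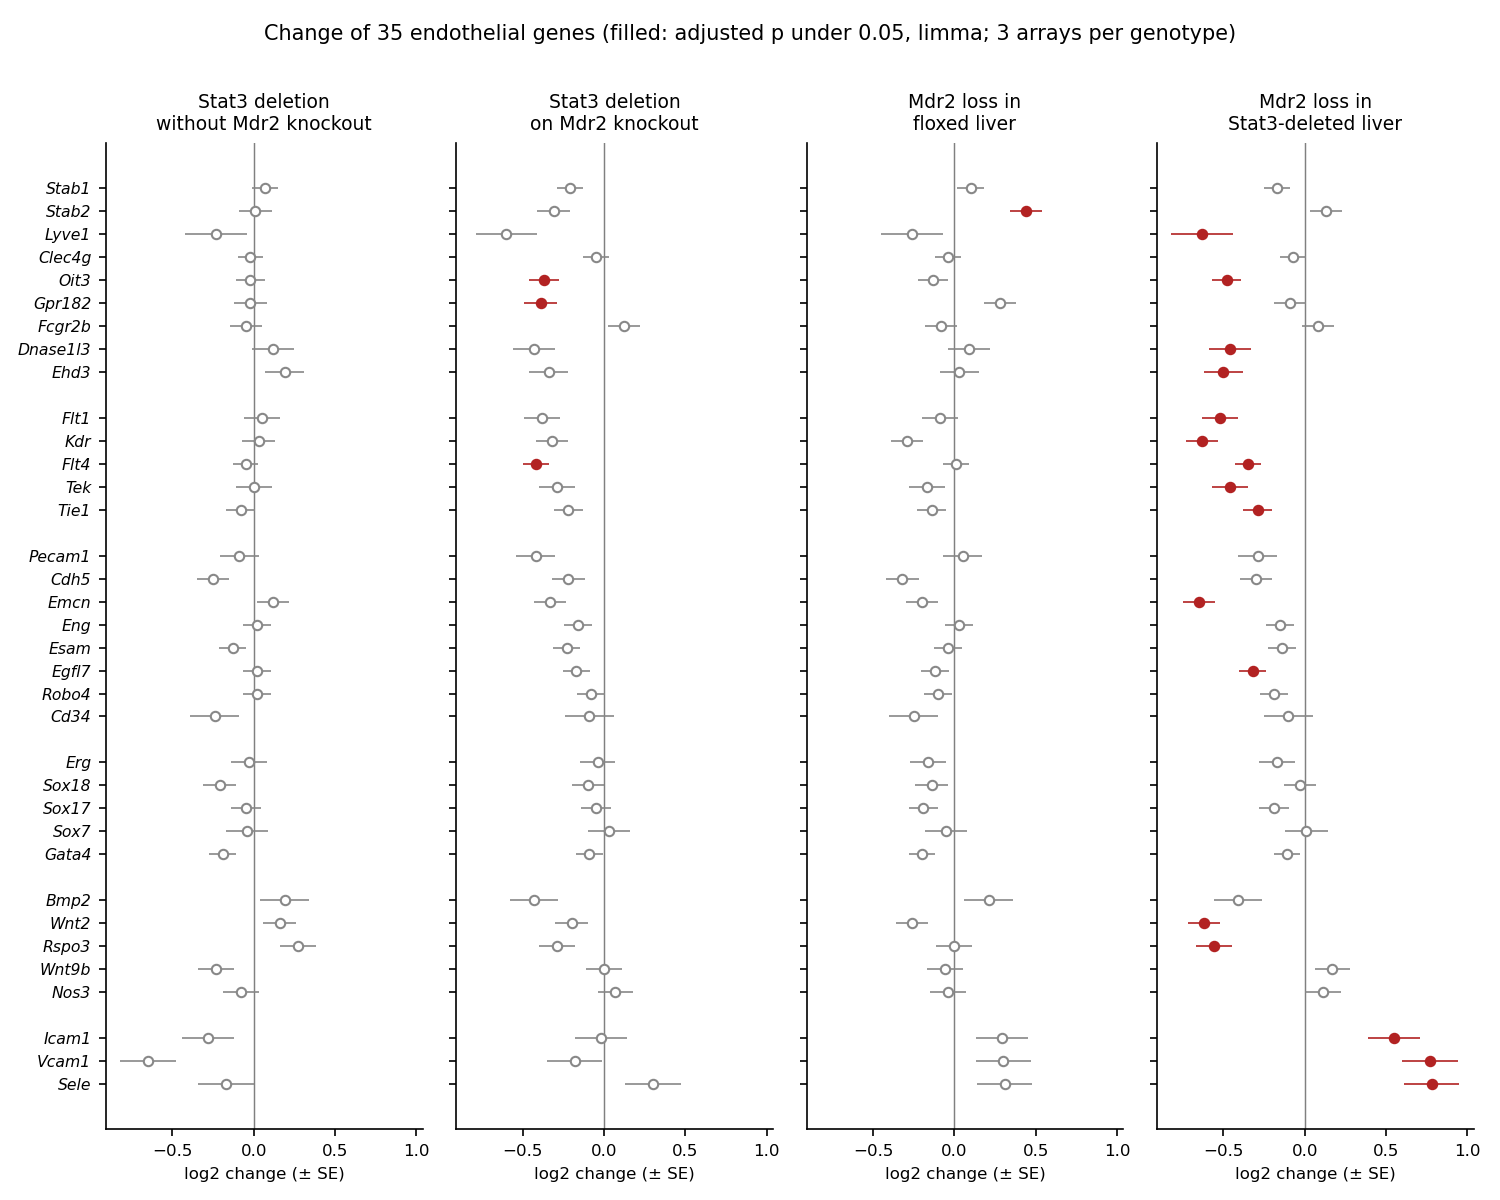
Log2 change ± SE of the 35 endothelial genes (rows, grouped by role) in the 4 pairwise comparisons, with 3 arrays per genotype. Filled red points passed an adjusted p under 0.05 in limma. There are 0, 3, 1 and 16 filled points from the left panel to the right, and the right panel holds the 5 receptors on the lower side and the 3 adhesion molecules on the higher side.

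The promoters of 4 genes called with Mdr2 loss in Stat3-deleted liver are shown: Icam1 and Sele, which rose, and Emcn and Egfl7, the 2 of 8 junction and surface genes that fell. Each is the RefSeq window from 250 bases before to 50 bases after the annotated start in build GRCm38.p6, read 5′ to 3′. The windows lie on the plus strand at chr9:21015690-21015989 (Icam1), chr1:164047984-164048283 (Sele), chr3:137340828-137341127 (Emcn) and chr2:26580833-26581132 (Egfl7, the first of 3 starts). Capitals mark TTCNNNGAA, the palindromic core bound by STAT factors, and CAGGAAG, a core bound by ETS factors, each on either strand, and TATAAA on the sense strand.
Icam1: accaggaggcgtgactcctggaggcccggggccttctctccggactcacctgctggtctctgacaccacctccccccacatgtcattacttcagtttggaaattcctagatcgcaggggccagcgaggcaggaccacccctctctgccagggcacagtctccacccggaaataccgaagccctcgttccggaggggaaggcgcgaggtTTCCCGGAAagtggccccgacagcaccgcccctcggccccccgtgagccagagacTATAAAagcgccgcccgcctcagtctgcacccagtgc
Sele: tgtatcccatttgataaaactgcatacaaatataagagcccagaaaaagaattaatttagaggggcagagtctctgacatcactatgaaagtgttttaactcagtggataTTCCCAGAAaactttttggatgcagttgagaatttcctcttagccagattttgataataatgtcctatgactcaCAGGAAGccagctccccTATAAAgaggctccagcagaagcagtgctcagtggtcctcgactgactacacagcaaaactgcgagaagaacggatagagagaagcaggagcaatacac
Emcn: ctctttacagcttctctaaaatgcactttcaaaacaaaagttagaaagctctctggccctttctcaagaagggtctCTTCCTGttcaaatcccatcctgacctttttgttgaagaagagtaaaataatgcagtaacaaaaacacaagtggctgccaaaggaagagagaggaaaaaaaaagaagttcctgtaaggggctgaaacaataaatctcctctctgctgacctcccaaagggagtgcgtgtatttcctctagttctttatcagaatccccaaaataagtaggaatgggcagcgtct
Egfl7: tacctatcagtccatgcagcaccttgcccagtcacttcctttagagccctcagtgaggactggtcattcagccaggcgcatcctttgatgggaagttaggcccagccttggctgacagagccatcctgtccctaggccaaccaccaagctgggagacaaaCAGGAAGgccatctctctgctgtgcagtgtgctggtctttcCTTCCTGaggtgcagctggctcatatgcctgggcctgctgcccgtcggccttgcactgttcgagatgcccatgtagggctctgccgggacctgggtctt
The match in Icam1 is TTCCCGGAA, which begins 42 bases before the start, and that in Sele is TTCCCAGAA, 140 bases before it. Of the 21 genes of the set with a window, these 2 hold TTCNNNGAA, as do 9.55% of the 27025 genes in the RefSeq table. CAGGAAG lies in 8 of the 21 (Stab1, Ehd3, Emcn, Egfl7, Robo4, Cd34, Erg and Sele), against 14.8% of genes. The related core CCGGAAG lies in none of the 21, against 9.93% of genes. TATAAA lies in Flt1, Icam1 and Sele, against 9.77% of genes. It begins 31 bases before the start in Flt1 and 49 before it in Sele, but 13 bases after the start in Icam1. A single strict form of the NF-kB site, searched on both strands, had no match in the 21, against 1.89% of genes. Other forms of that site were not searched, so the windows, those of Icam1 and Sele included, are not shown to lack one. No matches overlapped in these windows, and a match is a string of letters, not a shown binding site.

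Of the sinusoidal genes, 4 of 9 fell with Mdr2 loss in Stat3-deleted liver (Oit3, Ehd3, Dnase1l3 and Lyve1), 2 fell with Stat3 deletion on the knockout (Oit3 and Gpr182) and 1 rose with Mdr2 loss in floxed liver (Stab2). Oit3, a secreted protein with a zona pellucida domain, gave 9.27, 9.20 and 9.32 in Stat3Fl/Fl, 9.25, 9.22 and 9.25 in Stat3Δhc, 9.05, 9.31 and 9.05 in Stat3Fl/FlMdr2-/- and 8.77, 8.88 and 8.66 in Stat3Δhc Mdr2-/-. The last 3 arrays lay below the 9 others. Oit3 fell by 0.48 with Mdr2 loss in Stat3-deleted liver (SE 0.091, adjusted p 0.00404) and by 0.37 with Stat3 deletion on the knockout (SE 0.091, adjusted p 0.0346). The second call was lost without Stat3Δhc A (adjusted p 0.0575), Stat3Fl/FlMdr2-/- B (0.12) or C (0.0523), or Stat3Δhc Mdr2-/- C (0.096). With the Xist and Y-linked pattern as a covariate, which leaves array A alone in Stat3Δhc Mdr2-/-, the second change was again -0.37. Gpr182, a receptor that takes up chemokines, gave 7.84, 7.89 and 8.15 in Stat3Fl/Fl, 7.95, 7.85 and 8.03 in Stat3Δhc, 8.16, 8.31 and 8.25 in Stat3Fl/FlMdr2-/- and 7.99, 7.80 and 7.75 in Stat3Δhc Mdr2-/-. Here Stat3Fl/FlMdr2-/- stood above the 9 other arrays, as in 5.42% of all genes, and Stat3Δhc Mdr2-/- overlapped both genotypes without the knockout. The fall of 0.39 with Stat3 deletion on the knockout (SE 0.10, adjusted p 0.0411) was lost without any 1 of 7 arrays, at adjusted p 0.0551 to 0.126. These were Stat3Δhc A, Stat3Fl/Fl B, the 3 Stat3Fl/FlMdr2-/- arrays, and Stat3Δhc Mdr2-/- B and C. With the covariate the change was -0.25.

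Stab2, the main hyaluronan scavenger receptor of the sinusoid, gave 9.66, 9.56 and 9.66 in Stat3Fl/Fl, 9.68, 9.60 and 9.62 in Stat3Δhc, 10.04, 10.20 and 9.96 in Stat3Fl/FlMdr2-/- and 9.91, 9.83 and 9.54 in Stat3Δhc Mdr2-/-. Stat3Fl/FlMdr2-/- lay above all other arrays, while Stat3Δhc Mdr2-/- spanned the range of the arrays without the knockout. Stab2 rose by 0.44 with Mdr2 loss in floxed liver (SE 0.10, adjusted p 0.0131), or 1.36-fold. The call was lost without Stat3Fl/Fl B (adjusted p 0.0565) or Stat3Fl/FlMdr2-/- B (0.0513). With the Xist and Y-linked pattern as a covariate the log2 change was 0.22. Ehd3, a membrane-shaping protein of endocytic recycling, gave 8.88, 8.88 and 8.93 in Stat3Fl/Fl, 9.09, 9.09 and 9.08 in Stat3Δhc, 8.90, 9.10 and 8.76 in Stat3Fl/FlMdr2-/- and 8.30, 8.85 and 8.59 in Stat3Δhc Mdr2-/-. Its Stat3Δhc Mdr2-/- arrays lay below both genotypes without the knockout and overlapped Stat3Fl/FlMdr2-/-. Ehd3 fell by 0.50 with Mdr2 loss in Stat3-deleted liver (SE 0.12, adjusted p 0.0154), which was lost without Stat3Δhc C (adjusted p 0.0507).

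Dnase1l3, a secreted enzyme that digests DNA in circulating particles, gave 9.05, 9.08 and 9.15 in Stat3Fl/Fl, 9.20, 9.19 and 9.25 in Stat3Δhc, 9.33, 9.31 and 8.90 in Stat3Fl/FlMdr2-/- and 8.94, 8.85 and 8.47 in Stat3Δhc Mdr2-/-. The last group lay below both genotypes without the knockout, and array C of Stat3Fl/FlMdr2-/- fell within its range. With Mdr2 loss in Stat3-deleted liver Dnase1l3 fell by 0.46 (SE 0.13, adjusted p 0.0315), which was lost without Stat3Δhc A (0.077), B (0.0541) or C (0.101) or Stat3Δhc Mdr2-/- C (0.114). Lyve1, a hyaluronan receptor of sinusoidal and lymphatic endothelium, gave 8.08, 8.60 and 8.84 in Stat3Fl/Fl, 8.16, 8.22 and 8.44 in Stat3Δhc, 7.96, 8.60 and 8.16 in Stat3Fl/FlMdr2-/- and 7.84, 7.67 and 7.41 in Stat3Δhc Mdr2-/-. The Stat3Δhc Mdr2-/- arrays were the lowest 3 of the 12, and the SD of 0.38 in Stat3Fl/Fl was the widest of any gene of the set in any genotype. Lyve1 fell by 0.63 with Mdr2 loss in Stat3-deleted liver (SE 0.19, adjusted p 0.0418), or 1.55-fold. Leaving out any 1 of 7 arrays ended that call, at adjusted p 0.0531 to 0.152. They were all 3 of Stat3Δhc, Stat3Fl/Fl B, Stat3Fl/FlMdr2-/- C, and Stat3Δhc Mdr2-/- B and C.

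The other 3 sinusoidal genes passed in no comparison. Clec4g, a lectin called LSECtin, ranged from 10.54 to 10.75 over the 12 arrays, and its log2 changes in the 4 pairwise comparisons lay between -0.07 and -0.02. A second transcript cluster of Clec4g had a mean of 4.75 and was not used. Stab1, the sister scavenger receptor of Stab2, changed by -0.21 with Stat3 deletion on the knockout (SE 0.082, adjusted p 0.13), and Fcgr2b, the receptor that removes small immune complexes, by 0.12 (SE 0.098, adjusted p 0.425). The log2 changes within the sinusoidal group thus ran from -0.63 to 0.13 with Mdr2 loss in Stat3-deleted liver.

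**Figure D2:**
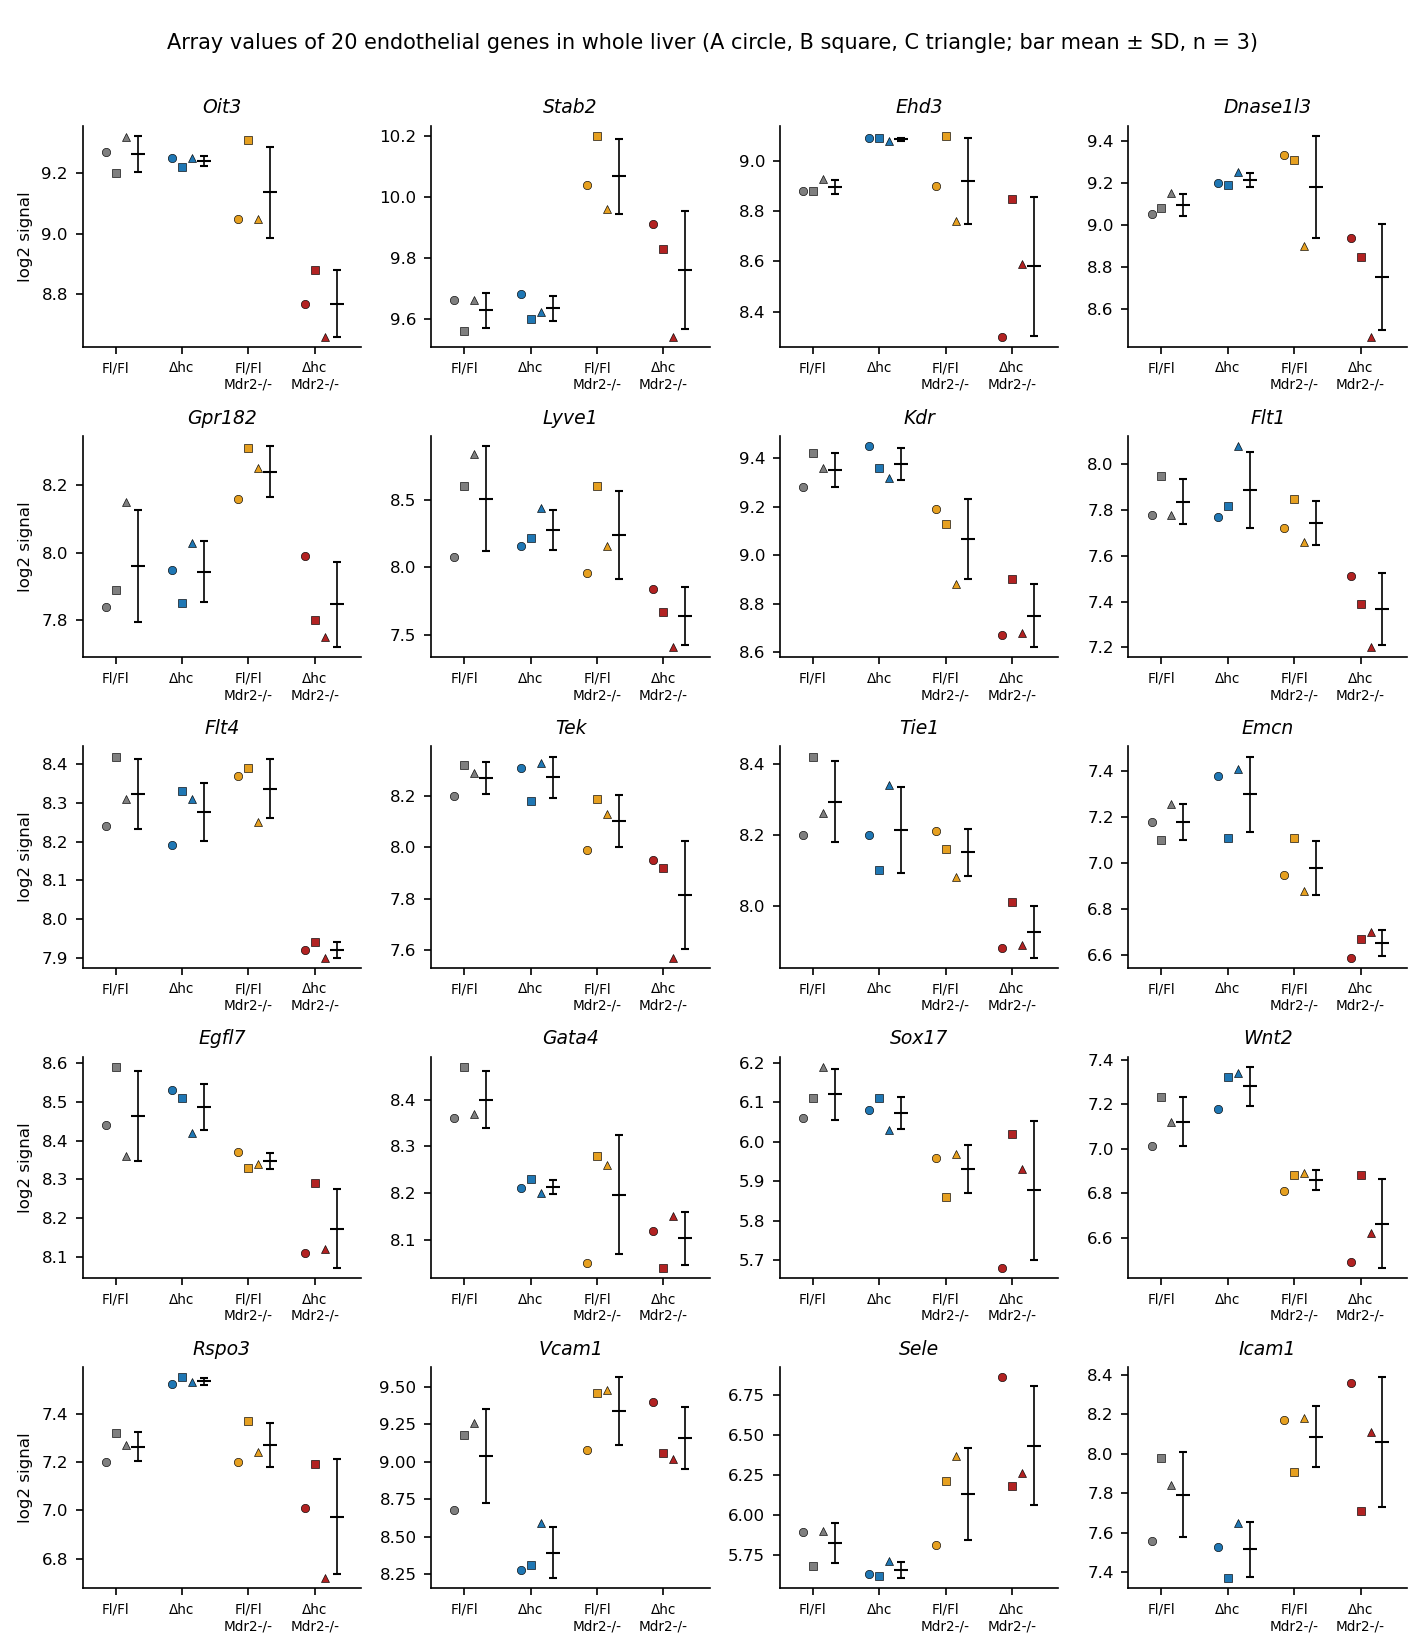
Log2 signal of 20 endothelial genes on each of the 12 arrays (A circles, B squares, C triangles), by genotype, with the mean ± SD of 3 arrays and a separate scale for each gene. The red Stat3Δhc Mdr2-/- points lie below all others for Oit3, Lyve1, Flt1, Flt4, Tek, Tie1, Emcn, Egfl7 and Rspo3, and the yellow Stat3Fl/FlMdr2-/- points lie above all others for Stab2 and Gpr182.

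The receptors fell together, 5 of 5, with Mdr2 loss in Stat3-deleted liver, with a median change of -0.46. In the 4 receptors other than Kdr, all 3 Stat3Δhc Mdr2-/- arrays lay below the 9 others. Kdr, the main signalling receptor for VEGF-A, gave 9.28, 9.42 and 9.36 in Stat3Fl/Fl, 9.45, 9.36 and 9.32 in Stat3Δhc, 9.19, 9.13 and 8.88 in Stat3Fl/FlMdr2-/- and 8.67, 8.90 and 8.68 in Stat3Δhc Mdr2-/-. All 6 knockout arrays lay below the 6 others, and the 2 knockout genotypes overlapped by 1 array. Kdr fell by 0.63 (SE 0.099, adjusted p 0.00129), or 1.55-fold, with Mdr2 loss in Stat3-deleted liver, and in floxed liver its change was -0.29 (adjusted p 0.0786). Flt1, a VEGF receptor that also acts as a decoy, gave 7.78, 7.95 and 7.78 in Stat3Fl/Fl, 7.77, 7.82 and 8.08 in Stat3Δhc, 7.72, 7.85 and 7.66 in Stat3Fl/FlMdr2-/- and 7.51, 7.39 and 7.20 in Stat3Δhc Mdr2-/-. The 3 genotypes other than Stat3Δhc Mdr2-/- overlapped one another. Its fall with Mdr2 loss in Stat3-deleted liver was 1.44-fold (log2 change -0.52, SE 0.11, adjusted p 0.00627).

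Flt4, the receptor for VEGF-C that sinusoidal and lymphatic endothelium share, gave 8.24, 8.42 and 8.31 in Stat3Fl/Fl, 8.19, 8.33 and 8.31 in Stat3Δhc, 8.37, 8.39 and 8.25 in Stat3Fl/FlMdr2-/- and 7.92, 7.94 and 7.90 in Stat3Δhc Mdr2-/-. The last 3 arrays stood apart from the other 9, whose lowest value was 8.19. Flt4 fell by 0.42 with Stat3 deletion on the knockout (SE 0.079, adjusted p 0.0108) and by 0.35 with Mdr2 loss in Stat3-deleted liver (SE 0.079, adjusted p 0.00973). No single left-out array ended either call, but the first was lost with only the compared groups (adjusted p 0.0607). With the Xist and Y-linked pattern as a covariate the first change was again -0.42. The difference of its Stat3 effects was -0.37 (SE 0.11, adjusted p 0.224).

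Tek, the angiopoietin receptor also called Tie2, gave 8.20, 8.32 and 8.29 in Stat3Fl/Fl, 8.31, 8.18 and 8.33 in Stat3Δhc, 7.99, 8.19 and 8.13 in Stat3Fl/FlMdr2-/- and 7.95, 7.92 and 7.57 in Stat3Δhc Mdr2-/-. Tek fell by 0.46 with Mdr2 loss in Stat3-deleted liver (SE 0.11, adjusted p 0.0109), with its highest array, 7.95, just under the lowest of the 9 others, 7.99. Tie1, its partner receptor with no known direct ligand of high affinity, gave 8.20, 8.42 and 8.26 in Stat3Fl/Fl, 8.20, 8.10 and 8.34 in Stat3Δhc, 8.21, 8.16 and 8.08 in Stat3Fl/FlMdr2-/- and 7.88, 8.01 and 7.89 in Stat3Δhc Mdr2-/-. The fall of 0.29 (SE 0.09, adjusted p 0.0443) was close to the threshold. It was lost without any 1 of 9 arrays, at adjusted p 0.0501 to 0.18, and kept without Stat3Δhc B, Stat3Fl/Fl A or Stat3Fl/Fl B. It was also lost in 6 of 11 other settings, among them only the compared groups (0.0932) and Y-linked arrays alone (0.109).

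Among the junction and surface genes, Emcn and Egfl7 fell with Mdr2 loss in Stat3-deleted liver and the other 6 passed in no comparison, although all 8 log2 changes were negative in it. Emcn, the sialomucin endomucin of capillaries and veins, gave 7.18, 7.10 and 7.26 in Stat3Fl/Fl, 7.38, 7.11 and 7.41 in Stat3Δhc, 6.95, 7.11 and 6.88 in Stat3Fl/FlMdr2-/- and 6.59, 6.67 and 6.70 in Stat3Δhc Mdr2-/-. Its Stat3Δhc Mdr2-/- values stood below all others, and its adjusted p of 0.00095 was the smallest among the 35 genes in any comparison (log2 change -0.65, SE 0.098, 1.57-fold lower). Egfl7, a secreted protein of the vessel wall whose gene hosts miR-126, gave 8.44, 8.59 and 8.36 in Stat3Fl/Fl, 8.53, 8.51 and 8.42 in Stat3Δhc, 8.37, 8.33 and 8.34 in Stat3Fl/FlMdr2-/- and 8.11, 8.29 and 8.12 in Stat3Δhc Mdr2-/-. The Stat3Δhc Mdr2-/- arrays were again the lowest 3. Egfl7 fell by 0.32 (SE 0.084, adjusted p 0.0225), which was lost without Stat3Δhc A (adjusted p 0.0837) or B (0.0515) or Stat3Δhc Mdr2-/- A (0.0545) or C (0.065), and in 4 of 11 other settings, among them Y-linked arrays alone (0.0793).

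Cdh5, the adherens junction protein VE-cadherin, changed by -0.30 with Mdr2 loss in Stat3-deleted liver (SE 0.10, adjusted p 0.0567) and by -0.32 in floxed liver (SE 0.10, adjusted p 0.0509). Pecam1, the junctional protein CD31, changed by -0.42 with Stat3 deletion on the knockout (SE 0.12, adjusted p 0.0595). Both lay near the threshold without passing it. The log2 changes with Mdr2 loss in Stat3-deleted liver were -0.15 for Eng, a co-receptor for BMP9, -0.14 for Esam, a tight junction adhesion molecule, -0.19 for Robo4, a guidance receptor that stabilises vessels, and -0.10 for Cd34, a sialomucin that is low on normal sinusoids.

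Of the transcription factors 0 of 5 were called in any of the 5 comparisons in limma, with log2 changes from -0.21 to 0.03 in the 4 pairwise ones. One of the 5, Gata4, had an unadjusted p under 0.05, in both comparisons with Stat3Fl/Fl. Gata4, a master regulator of sinusoidal identity that hepatocytes and stellate cells also express, gave 8.36, 8.47 and 8.37 in Stat3Fl/Fl, 8.21, 8.23 and 8.20 in Stat3Δhc, 8.05, 8.28 and 8.26 in Stat3Fl/FlMdr2-/- and 8.12, 8.04 and 8.15 in Stat3Δhc Mdr2-/-. Stat3Fl/Fl lay above the 9 others, as in 1.87% of all genes, with a change of -0.19 in Stat3Δhc (SE 0.082, adjusted p 0.276) and of -0.20 in Stat3Fl/FlMdr2-/- (SE 0.082, adjusted p 0.132). Sox17, a factor of arterial endothelium, gave 6.06, 6.11 and 6.19 in Stat3Fl/Fl, 6.08, 6.11 and 6.03 in Stat3Δhc, 5.96, 5.86 and 5.97 in Stat3Fl/FlMdr2-/- and 5.68, 6.02 and 5.93 in Stat3Δhc Mdr2-/-. All 6 knockout arrays lay below the 6 others, at adjusted p 0.218 in floxed and 0.154 in Stat3-deleted liver. With Mdr2 loss in Stat3-deleted liver the change was -0.17 for Erg, the ETS factor that keeps endothelial identity, -0.03 for Sox18 and 0.01 for Sox7, both early vascular factors.

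Wnt2 and Rspo3, which signal from central vein and sinusoidal endothelium to pericentral hepatocytes, fell with Mdr2 loss in Stat3-deleted liver, and Bmp2, Wnt9b and Nos3 did not pass. Wnt2, a Wnt ligand, gave 7.01, 7.23 and 7.12 in Stat3Fl/Fl, 7.18, 7.32 and 7.34 in Stat3Δhc, 6.81, 6.88 and 6.89 in Stat3Fl/FlMdr2-/- and 6.49, 6.88 and 6.62 in Stat3Δhc Mdr2-/-. All 6 knockout arrays were below the 6 others. Wnt2 fell by 0.62 with Mdr2 loss in Stat3-deleted liver (SE 0.10, adjusted p 0.0019), and its change in floxed liver was -0.26 (SE 0.10, adjusted p 0.128). Rspo3, which keeps Wnt receptors on the cell surface, gave 7.20, 7.32 and 7.27 in Stat3Fl/Fl, 7.52, 7.55 and 7.53 in Stat3Δhc, 7.20, 7.37 and 7.24 in Stat3Fl/FlMdr2-/- and 7.01, 7.19 and 6.72 in Stat3Δhc Mdr2-/-. Stat3Δhc stood above and Stat3Δhc Mdr2-/- below every other array, the first as in 5.44% of all genes. Rspo3 fell by 0.56 with Mdr2 loss in Stat3-deleted liver (SE 0.11, adjusted p 0.00366).

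Rspo3 was 0.27 higher in Stat3Δhc than in Stat3Fl/Fl (SE 0.11, adjusted p 0.213) and 0.29 lower with Stat3 deletion on the knockout, a log2 change of -0.29 (SE 0.11, adjusted p 0.104). The difference of these Stat3 effects, -0.57, had the smallest unadjusted p of the set in that test, 0.00237, but did not pass after adjustment (SE 0.15, adjusted p 0.207). Bmp2, which drives hepcidin in hepatocytes, showed a difference of -0.62 (SE 0.21, adjusted p 0.229) and changed by -0.41 with Mdr2 loss in Stat3-deleted liver (SE 0.15, adjusted p 0.0723). Wnt9b, a further central vein Wnt, and Nos3, the endothelial nitric oxide synthase, changed by 0.17 and 0.11 there, both with an adjusted p over the threshold.

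All 3 adhesion molecules rose with Mdr2 loss in Stat3-deleted liver, and in floxed liver their changes were 0.29 to 0.31, none of which passed. In Stat3Δhc each had its lowest mean, and its arrays are the reference of the rise. Vcam1, which binds the integrin VLA-4 on lymphocytes and monocytes, gave 8.68, 9.18 and 9.26 in Stat3Fl/Fl, 8.28, 8.31 and 8.59 in Stat3Δhc, 9.08, 9.46 and 9.48 in Stat3Fl/FlMdr2-/- and 9.40, 9.06 and 9.02 in Stat3Δhc Mdr2-/-. Stat3Δhc lay below the 9 other arrays, as in 2.63% of all genes, and these overlapped among the 3 other genotypes. Vcam1 rose by 0.77 with Mdr2 loss in Stat3-deleted liver (SE 0.17, adjusted p 0.00809), or 1.70-fold. Its change with Stat3 deletion without the knockout was -0.65 (SE 0.17, adjusted p 0.0593), just outside the threshold.

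Sele, the E-selectin that starts leukocyte rolling, gave 5.89, 5.68 and 5.90 in Stat3Fl/Fl, 5.63, 5.62 and 5.71 in Stat3Δhc, 5.81, 6.21 and 6.37 in Stat3Fl/FlMdr2-/- and 6.86, 6.18 and 6.26 in Stat3Δhc Mdr2-/-. Stat3Δhc Mdr2-/- lay above both genotypes without the knockout and overlapped Stat3Fl/FlMdr2-/-. The rise with Mdr2 loss in Stat3-deleted liver was 1.71-fold (log2 change 0.78, SE 0.17, adjusted p 0.00875). Icam1, the ligand of leukocyte LFA-1 that other liver cells also induce, gave 7.56, 7.98 and 7.84 in Stat3Fl/Fl, 7.53, 7.37 and 7.65 in Stat3Δhc, 8.17, 7.91 and 8.18 in Stat3Fl/FlMdr2-/- and 8.36, 7.71 and 8.11 in Stat3Δhc Mdr2-/-. The 2 knockout genotypes overlapped fully. Icam1 rose by 0.55 with Mdr2 loss in Stat3-deleted liver (SE 0.16, adjusted p 0.0331), which was lost without any 1 of 5 arrays, at adjusted p 0.0556 to 0.0927. These were all 3 of Stat3Δhc, and Stat3Δhc Mdr2-/- A and C. The Icam1 call was also lost with median centring (0.0523), only the compared groups (0.0688), the Xist and Y-linked pattern as a covariate (log2 change 0.40, adjusted p 0.0879) and Y-linked arrays alone (0.103). The TTCNNNGAA and TATAAA matches of the windows printed above belong to Icam1 and Sele, and Vcam1 has no window in the table used.

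**Figure D3:**
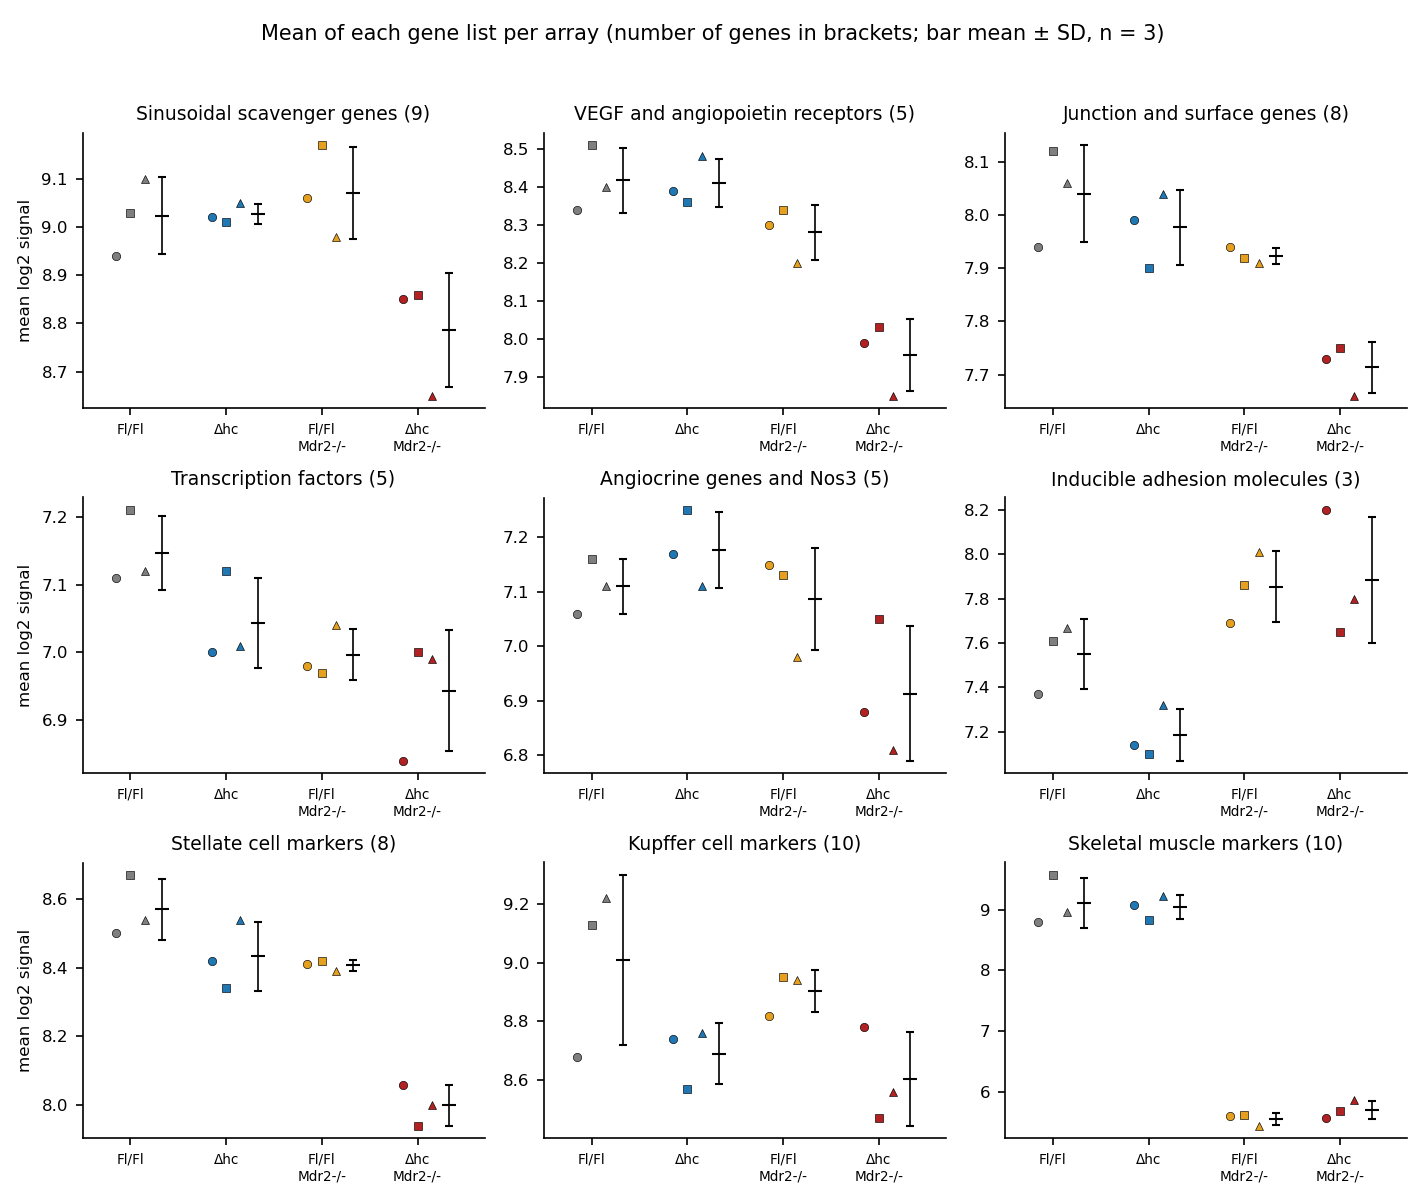
Mean log2 signal per array over each role group of the endothelial genes (first 6 panels) and over stellate cell, Kupffer cell and skeletal muscle markers, by genotype, with the mean ± SD of 3 arrays and the number of genes in brackets. Stat3Δhc Mdr2-/- lies below the 9 other arrays for the sinusoidal (8.65 to 8.86), receptor (7.85 to 8.03), surface (7.66 to 7.75) and stellate (7.94 to 8.06) means, and the muscle mean separates arrays with and without the knockout.

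Further lists cover the pathways around these receptors and ligands, and their counts stand against 17.4% of all genes called with Mdr2 loss in Stat3-deleted liver, 12.8% in floxed liver and 5.77% with Stat3 deletion on the knockout. Of 8 tested ligands and co-receptors of VEGF and angiopoietin, Nrp1, the VEGF co-receptor neuropilin, fell with Mdr2 loss in Stat3-deleted liver (log2 change -0.74, SE 0.10, adjusted p 0.000456) and with Stat3 deletion on the knockout (log2 change -0.68, SE 0.10, adjusted p 0.0035). Nrp1 ranged from 8.13 to 8.30 in Stat3Δhc Mdr2-/- and from 8.77 to 9.20 in the 9 other arrays. With the Xist and Y-linked pattern as a covariate the second change was again -0.68. With Mdr2 loss in floxed liver 1 ligand fell, Vegfa (-0.36, adjusted p 0.0387), and 1 rose, Vegfd (0.37, adjusted p 0.0416). Leaving out 1 array ended the Vegfa call for 6 of the 12 arrays (adjusted p 0.0577 to 0.137) and the Vegfd call for 9 (0.0502 to 0.156). The Notch and ephrin list had 2 of 11 called, near the share of all genes. Hes1, a Notch target that many cells share, fell by 1.02 (SE 0.22, adjusted p 0.00723) and Dll4, the endothelial Notch ligand, by 0.36 (SE 0.085, adjusted p 0.0132) with Mdr2 loss in Stat3-deleted liver. Dll4 was lost without Stat3Δhc C (adjusted p 0.0599), and no Notch gene passed in the other 4 comparisons.

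In the BMP list of 11 tested genes, 3 fell with Mdr2 loss in Stat3-deleted liver, namely Bmp10, Gdf2 and Id3, where 10.5% of all genes were lower. Gdf2 encodes BMP9, a ligand for endothelial ALK1, Bmp10 encodes its close relative, and stellate cells are a known source of both. Bmp10 measured 6.86, 6.95 and 6.77 in Stat3Fl/Fl, 6.84, 7.15 and 7.25 in Stat3Δhc, 6.88, 6.93 and 5.95 in Stat3Fl/FlMdr2-/- and 5.62, 5.87 and 5.77 in Stat3Δhc Mdr2-/-. The last group was lowest, and array C of Stat3Fl/FlMdr2-/- lay nearer to it than to its own group. Bmp10 fell by 1.33 (SE 0.21, adjusted p 0.00127), Gdf2 by 0.53 (SE 0.094, adjusted p 0.00265) and Id3, a BMP target, by 0.55 (SE 0.13, adjusted p 0.0126), the last lost without Stat3Δhc A (0.0533) or C (0.0595). With Stat3 deletion on the knockout Gdf2 fell by 0.69 (adjusted p 0.00254) and Bmp10 by 0.84 (adjusted p 0.0374). That Bmp10 call was lost without any 1 of 7 arrays (adjusted p 0.0502 to 0.129) and kept without the 3 Stat3Δhc arrays, Stat3Fl/Fl A or Stat3Fl/FlMdr2-/- C. It was also lost with only the compared groups (0.102). With the covariate the log2 change was -0.97. In floxed liver Mdr2 loss lowered Id1 (log2 change -0.68, adjusted p 0.00335) and raised Bmpr2 (0.46, adjusted p 0.00341). With the Xist and Y-linked pattern as a covariate these changes were -0.78 and 0.25.

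Of 15 Wnt pathway and pericentral genes, 9 fell and none rose with Mdr2 loss in Stat3-deleted liver, with a median of -0.49. They were Lect2, Lgr5, Cyp1a2, Rnf43, Axin2, Tbx3, Cyp2e1, Oat and Rhbg. Leaving out 1 array ended the Oat call for 2 arrays (adjusted p 0.09 and 0.0927) and the Rhbg call for 4 (0.051 to 0.0972). Lgr5, the hepatocyte receptor for R-spondins, measured 7.42, 7.20 and 7.30 in Stat3Fl/Fl, 8.08, 7.80 and 8.12 in Stat3Δhc, 7.32, 7.28 and 7.27 in Stat3Fl/FlMdr2-/- and 7.32, 7.07 and 6.82 in Stat3Δhc Mdr2-/-. As with Rspo3, Stat3Δhc stood above all other arrays. Lgr5 fell by 0.93 (SE 0.12, adjusted p 0.000416), Lect2, a hepatocyte Wnt target, by 0.98 (SE 0.097, adjusted p 4.18e-05), Cyp1a2, a pericentral cytochrome P450, by 0.98 (SE 0.13, adjusted p 0.000432) and Rnf43, a brake on Wnt receptors, by 0.66 (SE 0.10, adjusted p 0.00122). Without the knockout, Stat3 deletion raised Oat (1.19, adjusted p 0.00899), Lgr5 (0.70, adjusted p 0.0124) and Cyp1a2 (0.56, adjusted p 0.0421). Leaving out 1 array ended the Oat call for Stat3Fl/Fl B (adjusted p 0.0573), the Lgr5 call for Stat3Δhc A and C and Stat3Fl/Fl B and C (0.0556 to 0.0735) and the Cyp1a2 call for 8 arrays (0.0527 to 0.202).

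With Mdr2 loss in floxed liver 3 genes of that list rose and 2 fell. Slc1a2 (1.56, adjusted p 0.00352), Glul (0.50, adjusted p 0.00915) and Znrf3 (0.31, adjusted p 0.032) were higher, and Lect2 (-0.80, adjusted p 0.000226) and Axin2 (-0.35, adjusted p 0.0209) lower. Slc1a2 and Glul are the glutamate transporter and glutamine synthetase of pericentral hepatocytes. Glul was also the one gene of the list lowered by Stat3 deletion on the knockout (-0.59, SE 0.11, adjusted p 0.00947). That call was lost with only the compared groups (adjusted p 0.0519). With the Xist and Y-linked pattern as a covariate its log2 change was -0.42. Leaving out 1 array ended the Znrf3 call for 4 arrays (adjusted p 0.0723 to 0.128) and the Axin2 call for 3 (0.0512 to 0.0801). The log2 changes in floxed liver with the Xist and Y-linked pattern as a covariate were -0.41 for Axin2 and -0.68 for Lect2. They were 0.83 for Slc1a2, 0.24 for Glul and 0.23 for Znrf3. Wnt ligand and target genes did not all move one way. Wnt2 and Rspo3 stood beside falling Lgr5, Axin2 and Rnf43 in Stat3-deleted liver, while Glul and Slc1a2 were not among the genes that fell there.

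**Figure D4:**
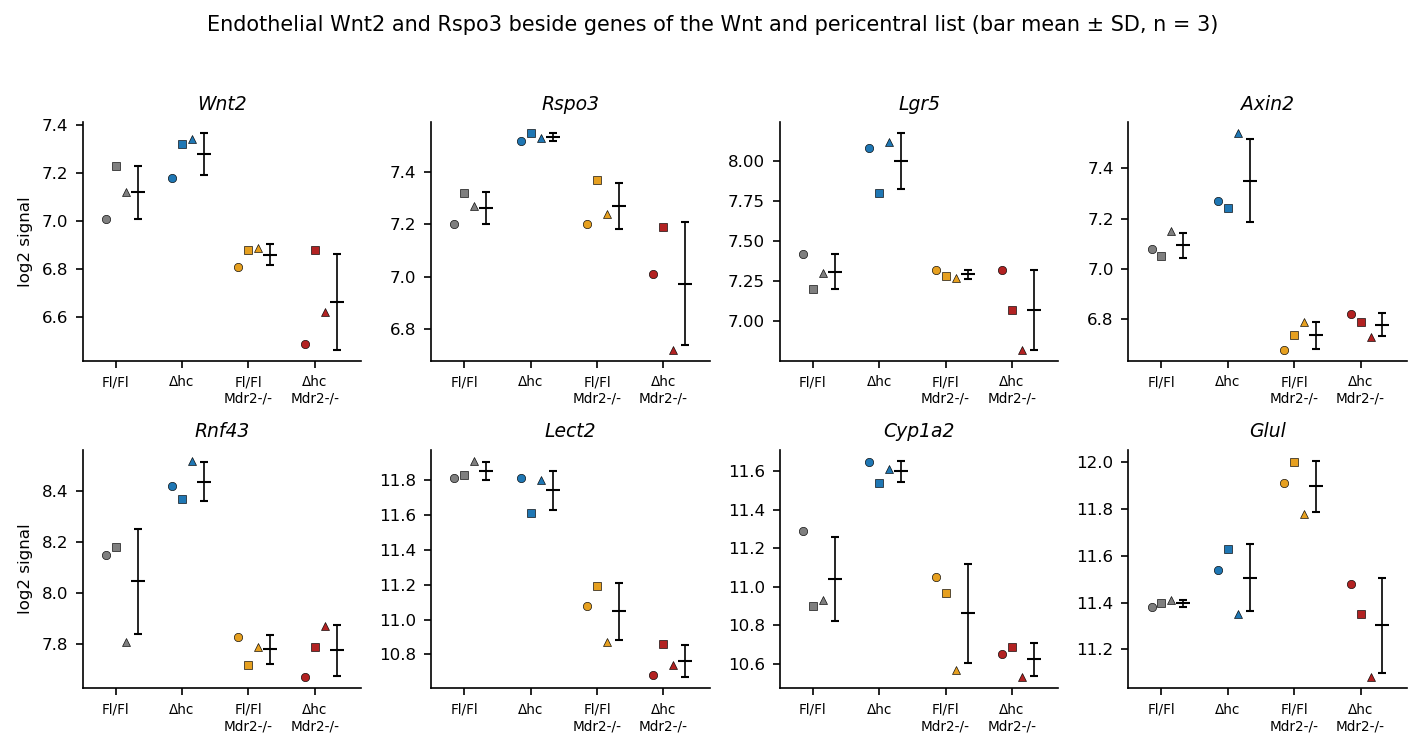
Log2 signal of Wnt2, Rspo3 and 6 genes of the Wnt and pericentral list on each of the 12 arrays, by genotype, with the mean ± SD of 3 arrays. Stat3Δhc (blue) is the highest genotype for Rspo3 (7.52 to 7.55), Lgr5 (7.80 to 8.12) and Cyp1a2 (11.54 to 11.65), and Glul is highest in Stat3Fl/FlMdr2-/- (11.78 to 12).

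A second list of 27 tested endothelial genes outside the set showed 10 lower and 2 higher genes with Mdr2 loss in Stat3-deleted liver. Clec14a, a surface glycoprotein of vessels, gave 7.65, 7.69 and 7.75 in Stat3Fl/Fl, 7.88, 7.77 and 8.07 in Stat3Δhc, 7.36, 7.58 and 7.51 in Stat3Fl/FlMdr2-/- and 7.12, 6.92 and 6.82 in Stat3Δhc Mdr2-/-. Each knockout genotype lay below both others, and Stat3Δhc Mdr2-/- below Stat3Fl/FlMdr2-/-. Clec14a fell by 0.95 (SE 0.10, adjusted p 8.28e-05), Calcrl, the adrenomedullin receptor, by 0.74 (SE 0.12, adjusted p 0.0013), and Cav1, the coat protein of caveolae, by 1.19 (SE 0.16, adjusted p 0.000457). Procr, the protein C receptor, rose by 0.45 (SE 0.083, adjusted p 0.00309). With Stat3 deletion on the knockout Calcrl fell by 0.62 (adjusted p 0.0104) and Clec14a by 0.53 (adjusted p 0.0117), the latter lost without Stat3Fl/FlMdr2-/- B (0.0532). Both were lost with only the compared groups (0.0604 and 0.0544). With the Xist and Y-linked pattern as a covariate the log2 changes were -0.42 and -0.37. Mdr2 loss in floxed liver lowered 4 of the list and raised 2, against 12.8% of all genes called, and Cav1 was among those lowered (-1.06, SE 0.16, adjusted p 0.00113). With the Xist and Y-linked pattern as a covariate Mmrn2 went from -0.48 to -0.14 and Aplnr from -0.49 to -0.29. Ramp2 went from 0.46 to 0.71, Gja4 from 0.36 to 0.38 and Cldn5 from -0.29 to -0.27. These genes were chosen here after their values were seen. Cav1 is also abundant in muscle and in many other cells.

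Of 13 other genes known from sinusoidal endothelium, Mrc1, the mannose receptor, fell by 0.45 (adjusted p 0.024) and Cd36, a scavenger receptor, by 0.52 (adjusted p 0.0331) with Mdr2 loss in Stat3-deleted liver. Adam23 rose by 0.40 in it (adjusted p 0.0124) and by 0.60 in floxed liver (adjusted p 0.00136). Mrc1 and Cd36 each lost the call without Stat3Δhc A, Stat3Δhc C or Stat3Δhc Mdr2-/- C (adjusted p 0.0599 to 0.0994 for Mrc1 and 0.0875 to 0.137 for Cd36). Kupffer cells also express Mrc1, and hepatocytes and macrophages Cd36.

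Markers of other liver cells moved with some of these groups. The mean of 8 stellate cell markers was 7.94 to 8.06 in Stat3Δhc Mdr2-/- and 8.34 to 8.67 in the 9 other arrays. With Stat3 deletion on the knockout 4 of the 8 fell and none rose, against 3.9% of all genes lower. Among the 4 were Lrat (-0.93, adjusted p 0.00426) and Reln (-0.58, adjusted p 0.00366). With Mdr2 loss in Stat3-deleted liver 4 fell and 1, Pdgfrb, rose (0.45, adjusted p 0.00486). Des, part of the mean and 1 of these 4, fell by 1.61 in that comparison and by 1.60 in floxed liver. Des signal was 7.61 to 8.24 without the knockout and 6.16 to 6.4 with it, a split that skeletal muscle markers share. The part of muscle in the fall of Des was not tested. The mean of 10 Kupffer cell markers was 8.47 to 8.78 in Stat3Δhc Mdr2-/-, 8.82 to 8.95 in Stat3Fl/FlMdr2-/-, 8.57 to 8.76 in Stat3Δhc and 8.68 to 9.22 in Stat3Fl/Fl. Csf1r and Adgre1 of that list fell with Stat3 deletion on the knockout. All stellate and Kupffer markers passed the filter on low values. The mean of 8 hepatocyte markers ran from 12.17 to 12.48 over all arrays. With Mdr2 loss in Stat3-deleted liver 3 of the 8 fell and none rose, against 10.5% of all genes lower. In floxed liver 1 fell, against 5.65% of all genes. With Stat3 deletion without the knockout 1 rose, against 1.51%. With Mdr2 loss in Stat3-deleted liver 5 lymphocyte markers were higher by a median of 0.30, 2 of them called. Their mean was lowest in Stat3Δhc, the reference of that rise, at 5.66 to 5.84. It was 5.96 to 6.16 in Stat3Δhc Mdr2-/-, 6.11 to 6.19 in Stat3Fl/FlMdr2-/- and 5.95 to 6.22 in Stat3Fl/Fl. The mean of 4 platelet markers per array ran from 6.09 to 7.03. The part of these cells in the endothelial changes was not tested.

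Skeletal muscle and erythroid markers were lower with the knockout, and pancreatic markers varied widely between the arrays without it. All 10 skeletal muscle markers fell in both Mdr2 comparisons, with medians of -3.59 in floxed and -3.20 in Stat3-deleted liver. The mean of 6 pancreatic markers was 5.63 to 6 with and 5.85 to 10.16 without the knockout. Array A of Stat3Fl/Fl (5.85) and of Stat3Δhc (6.04) lay within or close to the range of the knockout arrays. The mean of 3 erythroid markers was 6.93 to 7.27 with and 7.56 to 8.15 without the knockout. Muscle brings its own endothelium, and its part in the Mdr2 comparisons was not tested. Restricted to the 8 arrays that carry Y-linked signal, Mdr2 loss in Stat3-deleted liver did not call the same genes throughout. Egfl7 (adjusted p 0.0793), Tie1 (0.109) and Icam1 (0.103) were no longer called, and Cdh5 (0.0489) and Pecam1 (0.0443) were. In this setting Stat3Δhc Mdr2-/- keeps only arrays B and C. The log2 changes of Egfl7 (-0.29), Tie1 (-0.27), Icam1 (0.40), Cdh5 (-0.37) and Pecam1 (-0.40) equal those without array A. The setting is therefore not a separate check.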

How the data were processed

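Whole-liver total RNA of 12 samples was hybridised to Affymetrix mouse Gene 1.0 ST arrays. The authors deposited log2 values. RMA is the method named, without a version, per the submitters' processing notes, and the table used here ran from 1.37 to 14.54 on that scale. Samples were grouped by title. Gene names come from the platform annotation, in which 21789 of 35556 transcript clusters name 1 gene, and each gene was taken by its cluster of highest mean over the 12 arrays. Genes above the 40th percentile of an array in at least 3 arrays were tested, which left 13977.

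One limma 3.58.1 model (R 4.3.3, lmFit and eBayes) with 4 genotype means and 8 residual degrees of freedom gave the 4 pairwise comparisons and the difference of the Stat3 effects. P-values were adjusted by Benjamini-Hochberg over all genes tested, at 0.05. The prior SD was 0.13 with 4.82 degrees of freedom. The median SE was 0.11 in pairwise comparisons and 0.155 in the difference, and 3 arrays per genotype limit the precision. Intensities carry no read depth. The same model was also run on simulated arrays with known changes and independent noise. That run held no Xist or Y-linked pattern and no other tissue, so it cannot speak to either.

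The members and lists were chosen with earlier results of these data known. All 12 values are given for members with an adjusted p under 0.05 in any comparison, at most 6 per role, or else for the 2 with the smallest unadjusted p. Pathway lists name up to 4 genes by adjusted p. Other genes named from a list with 5 or fewer calls, the 9 lower genes of the Wnt list, the other genes named there, and the stellate and Kupffer markers named were chosen after their values were seen.

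The letters A, B and C do not pair the arrays: the deviations of same-letter arrays from their genotype means correlated between -0.409 and 0.366. Alternatives changed the scaling (median centring, cyclic loess), the filter (none, or the 60th percentile), the cluster choice (averaged per gene), the variance model (array weights, or trend with robust eBayes) and the arrays fitted (each one left out, the compared groups alone, or Y-linked arrays alone). Others added a replicate block or the Xist and Y-linked pattern as a covariate. Only Stat3Δhc Mdr2-/- holds both patterns, so that covariate is set by its array A against B and C. Settings for pathway genes were added after the data were seen. Promoter windows are RefSeq's (GRCm38.p6) and were found for 21 of the 36 genes. Figures were drawn with matplotlib 3.10.9 (Python 3.11.15).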

Additional observations from a re-analysis of the deposited data

How the results depend on the processing

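Of 61 pairs of gene and comparison with an unadjusted p under 0.05, 60 kept their direction in every setting run. Of the 20 called pairs, 10 kept the call in every setting that tested them, all with Mdr2 loss in Stat3-deleted liver (Emcn, Flt1, Flt4, Kdr, Oit3, Rspo3, Sele, Tek, Vcam1 and Wnt2). Sele did not pass the 60th percentile filter and was not tested with it. The one turned value was Wnt2 with Mdr2 loss in floxed liver, 0 with the Xist and Y-linked pattern as a covariate. In floxed liver pattern and genotype cannot be told apart. The covariate is set there by 1 array of another genotype, Stat3Δhc Mdr2-/- A, against B and C. Counts of members called with it are left out for the comparisons that hold Stat3Fl/FlMdr2-/-. Where its counts over all genes are given below for these comparisons, they rest on that array A. Such counts cannot show the part of the pattern, and a lower count with the covariate decides nothing on it. Members called with Mdr2 loss in Stat3-deleted liver, 16 in the reported setting, ranged from 12 with only the compared groups to 22 with array weights, and from 11 to 17 without 1 array. With Stat3 deletion on the knockout (3 members) there was 1 with no filter, cyclic loess or the replicate block. There were 0 with only the compared groups, 6 with the 60th percentile filter, 5 with trend and robust eBayes and 8 with array weights. Leaving out 1 array gave 1 to 7. The 1 was found without Stat3Δhc A, Stat3Fl/FlMdr2-/- B or Stat3Δhc Mdr2-/- C, and the 7 without Stat3Δhc Mdr2-/- A. Without the knockout (0 members) there was 1 with the 60th percentile filter, cyclic loess or trend and robust eBayes, 6 with array weights, and 0 to 1 without 1 array. With Mdr2 loss in floxed liver (1 member) there were 2 with the 60th percentile filter, cyclic loess, median centring or trend and robust eBayes. There were 3 with array weights and 0 to 2 without 1 array. For the difference of the Stat3 effects array weights gave 1 member, and cyclic loess a member median of -0.07 against -0.17. Over all genes, Stat3 deletion on the knockout called 806, and 2298 with array weights, 230 with only the compared groups, 473 with the replicate block, 37 with the covariate and 302 to 1475 without 1 array. Stat3 deletion without the knockout called 361, and 2955 with array weights, 237 with the replicate block, 234 on Y-linked arrays only and 69 to 753 without 1 array. The difference called 10, and 6 with no filter, 23 with trend and robust eBayes and 567 with array weights. It called 3 with the replicate block and 0 to 64 without 1 array. Mdr2 loss in floxed liver called 1785, 102 with the covariate and 1105 to 2129 without 1 array, and in Stat3-deleted liver 2431, 5830 with array weights, 1541 with only the compared groups and 1156 to 2613 without 1 array. Scaling moved the split of higher and lower calls. Cyclic loess gave 466 higher and 443 lower in place of 261 and 545 for Stat3 deletion on the knockout, and 4 and 7 in place of 2 and 8 for the difference. Median centring gave 673 and 888 in place of 995 and 790 for Mdr2 loss in floxed liver, and 635 and 2052 in place of 964 and 1467 in Stat3-deleted liver. The median change of all genes stayed within -0.09 and 0.02 under both.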
